A study of Homo sapiens with 6 samples.

Results

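The imprinted DLK1-DIO3 locus on human chromosome 14 carries a long series of miRNA hairpins, and 24 of their mature miRNAs were present among the 1247 entries of a table of small RNA from exosomes. Members were taken by name alone, as either arm of 47 hairpin names of the locus, and 23 of these names had at least 1 entry. Both arms were present for miR-323a only. The rule uses names and no measured value.

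Small RNA was sequenced from exosomes, the small vesicles that cells shed into their medium, of H1299, an established human cell line that grew out of a non-small cell lung cancer. The control cells stably expressed a control short hairpin RNA. The shWDR4 cells stably expressed a short hairpin RNA against WDR4, the partner subunit of METTL1 in the enzyme that writes 7-methylguanosine on RNA. Both groups carry the wild-type genotype in the labels, and both were kept for 48 hours in exosome-free medium. The 3 libraries of a group, given as independent repeats, were joined into 1 count column in the table, so no value has a replicate error. All differences therefore compare 2 pooled columns of 1 cell line, and no p-value was computed. The study addressed a role of WDR4 in loading miRNAs into exosomes. The labels do not say which short hairpin RNAs were used or how many clones the lines hold, and the table holds mature miRNAs only, so neither the WDR4 transcript nor markers of the cell line could be checked.

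The locus is expressed according to parental origin. The protein-coding genes DLK1, RTL1 and DIO3 are read from the paternal copy, and the non-coding RNAs MEG3, MEG8 and MEG9, with the miRNAs, from the maternal copy. The hairpins are cut from long maternal transcripts in a shared run, so that members are known to be made together, and the cluster is best known from placenta, embryonic tissues and brain. Mature miRNAs pair with messenger RNA mainly through the seed, bases 2 to 8 from the 5′ end.

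The members fall into a short group beside MEG3 and opposite RTL1 and a long group that runs from miR-379 to miR-656. Their mature sequences lie on the plus strand of chromosome 14 between 100869075 (miR-493-5p) and 101066751 (miR-656-5p) of GRCh38, a span of 198 kb. A stretch of 138 kb separates miR-432-5p from miR-379-5p, and no member lies in it. The sequences below are those on which the results turn. They are the 8 members with at least 10 counts over both columns, the close relative miR-376a-3p, the 3 most counted members seen in shWDR4 alone, and miR-2392, which lies in MEG3 and was not among the 47 names. They are from RefSeq on GRCh38.p14, which held all 24 members, and capitals mark the seed.
miR-2392: uAGGAUGGgggugagaggug
miR-127-3p: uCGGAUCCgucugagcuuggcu
miR-432-5p: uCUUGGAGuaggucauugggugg
miR-379-5p: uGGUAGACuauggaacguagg
miR-411-5p: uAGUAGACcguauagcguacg
miR-323a-5p: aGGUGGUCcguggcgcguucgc
miR-376c-3p: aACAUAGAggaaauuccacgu
miR-376a-3p: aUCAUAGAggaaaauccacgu
miR-376b-3p: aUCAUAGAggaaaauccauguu
miR-382-5p: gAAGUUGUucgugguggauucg
miR-485-3p: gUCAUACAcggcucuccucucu
miR-369-5p: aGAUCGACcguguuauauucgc
miR-656-5p: aGGUUGCCugugagguguuca

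The 24 members held 23 different seeds, and the only pair of the 276 with a shared seed was miR-376a-3p and miR-376b-3p. These differ by C19U over the 21 bases compared, counted from 1 at the 5′ end with the base of miR-376a-3p first. The miR-376 miRNAs are known for A-to-I editing in brain. The third relative, miR-376c-3p, differs from miR-376a-3p by U2A and A14U, so that its seed is another. Between miR-376b-3p and miR-376c-3p there were 3 mismatches, and between miR-323a-3p and miR-323b-3p there were 2. These 4 pairs were the only ones of all pairs with at most 6. How reads were divided among the miR-376 entries and between these 2 miR-323 entries is therefore uncertain. Whether a read was counted at more than 1 of them is not known either, and their sums are given beside the single values.

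The cluster was a minor part of the exosomal miRNA, and its summed share was lower in the shWDR4 column. The control column, with 1020282 counts, held 451 counts of the cluster, and the shWDR4 column, with 552913 counts, held 70. Scaled to 1000000 counts of the column (CPM), the sum was 442 CPM in control and 126.6 CPM in shWDR4. These are shares of 0.0442% (exact 95% interval 0.0402 to 0.0485) and 0.0127% (0.00987 to 0.0160). The share in shWDR4 was 3.49-fold lower (2.71 to 4.56), and the intervals of the columns were far apart. At the control share, 244 counts of the cluster would have stood in the shWDR4 column. Intervals here and below are exact, those of ratios conditional on the sum of both counts, and cover counting error only. The labels do not say whether reads or molecular identifiers were counted, and copies of 1 molecule made by amplification are not independent. Fewer vesicles that carry a miRNA, fewer copies per vesicle and a lower level in the cells cannot be told apart in these columns. A share also falls when other entries gain counts, and the columns give no amounts per vesicle.

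The shWDR4 total itself was carried by a few entries. The sum of miR-3960, miR-6126 and miR-7704 was 0.774% of all counts in control and 37.3% in shWDR4. Against totals without these 3, the ratio of the cluster sum was 0.454 in place of 0.286. Among the 349 entries whose 2 counts added to at least 50 the median log2 ratio was -0.37, and that of the cluster sum was -1.80. Relative to that median entry the cluster sum stood at -1.44, a value that does not depend on the scaling.

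Detection did not follow the summed share. In control 17 of the 24 members had at least 1 count, and in shWDR4 18 had. At the smaller depth of shWDR4, the control column would show 16.3 members on average. Over the whole table, 906 entries had at least 1 count in control and 1061 had in shWDR4. At the depth of shWDR4, the control column would show 862 of these entries on average. Detection in shWDR4 was thus further above that level in the whole table than in the cluster, a difference that was not tested. Only 11 members were in both columns, while 6 were seen in control only and 7 in shWDR4 only. Of all 1247 entries, both columns held 720, control only 186 and shWDR4 only 341. The members in shWDR4 were at low counts. Of them, 9 had at least 3 counts, against 16 in control, and 8 had at least 5, against 14. Of all entries, 803 had at least 3 counts in shWDR4 and 797 in control, and 650 and 730 had at least 5. None reached 20 counts in shWDR4, where the highest was 11, whereas 8 did in control, and of all entries 344 did in shWDR4 and 393 in control. A count of 0 allows up to 3 counts, which is 2.94 CPM in control and 5.43 CPM in shWDR4.

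**Figure D1:**
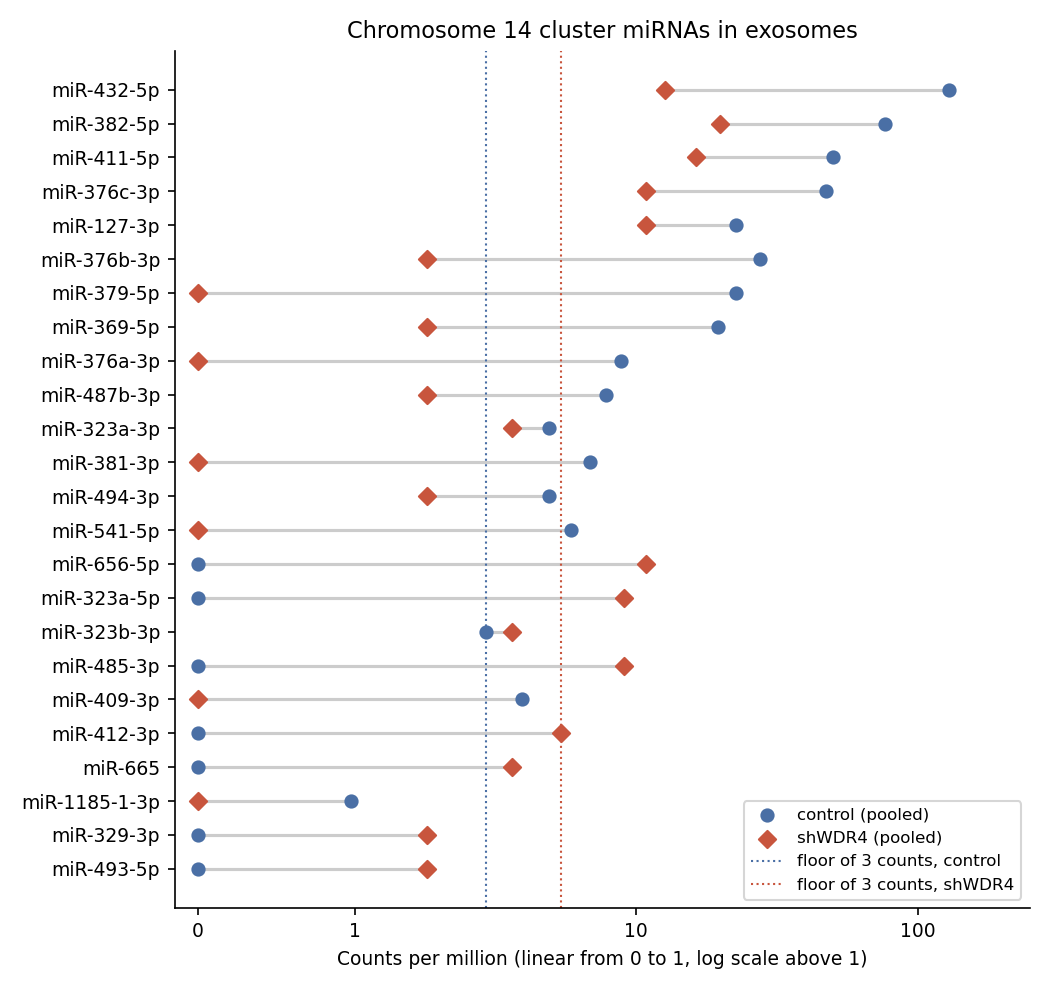
CPM of each of the 24 members in the pooled control column (circles) and the pooled shWDR4 column (diamonds), ordered by total counts, with the level of 3 counts in each column as dotted lines. The axis is linear from 0 to 1 and logarithmic above. The 8 members at the top are all lower in shWDR4, and 7 of the members below them are at 0 in control.

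Of the members, 8 reached 10 counts over both columns. Together they went from 403 counts in control to 41 in shWDR4, a 5.33-fold lower share (3.86 to 7.54). All 8 were at least 2-fold lower, where a 0 was set to 3 counts, and none was 2-fold higher. Over all 687 entries that reached 10 counts, 29.7% were at least 2-fold lower and 31.7% at least 2-fold higher. With a minimum of 20 counts the same 8 members were left, against 30.7% lower and 30.1% higher among 501 entries. All 8 were lower under each of 5 other scalings, but miR-127-3p was less than 2-fold lower in 4 of them, with ratios from 0.520 to 0.762. Without the 3 abundant shWDR4 entries in the totals, miR-411-5p was also just short of 2-fold, at 0.516. The minimum was set on the sum of both columns, and only miR-382-5p reached 10 counts in shWDR4 itself, so 7 of the 8 passed through control. Their count, median and summed ratio therefore describe these members and are no support for a change of the cluster. Of the 255 entries with 21 to 139 total counts, the range of these members, 28.2% were at least 2-fold lower and 35.3% at least 2-fold higher, and their median log2 ratio was 0.12. This range was chosen after the values were seen.

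The 16 members that did not reach the minimum are the complement of that choice, and their values are likewise a description. Their summed counts were 48 in control and 29 in shWDR4, or 47.0 and 52.4 CPM. The ratio of shWDR4 over control was 1.11 (0.678 to 1.80). These 16 made up 10.6% of the cluster counts in control (7.95 to 13.9) and 41.4% in shWDR4 (29.8 to 53.8).

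With at least 50 counts required, 4 members were left, miR-432-5p, miR-382-5p, miR-411-5p and miR-376c-3p. All 4 were at least 2-fold lower, against 31.5% of the 349 entries lower and 26.1% higher, and their median log2 ratio was -2.03 against -0.37 for these entries. Over the 8 members with at least 10 counts the median was -2.09, against -0.12 for the 687 entries. The 4 members had at most 11 counts in shWDR4, so all of them passed the minimum of 50 through control. Their count and median, like those of the 8, describe these members only and are no support for a change of the cluster.

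**Figure D2:**
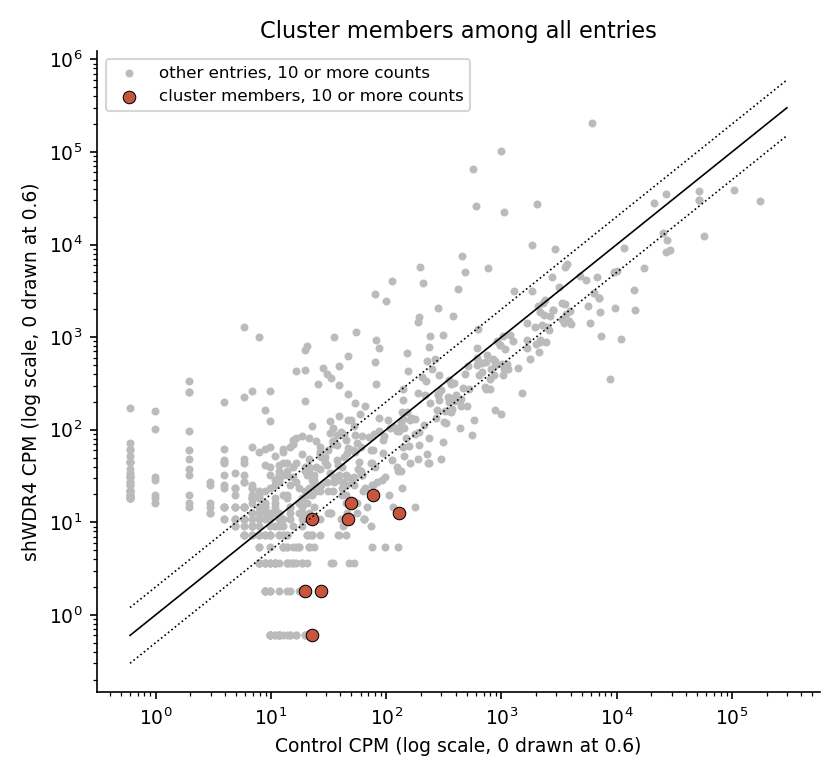
CPM in shWDR4 against control, on log axes, for the 687 entries that reached 10 counts. Grey points are other entries and red points the 8 cluster members. Solid and dotted lines mark equal values and 2-fold differences. The 8 members lie on the lower side of the cloud, and miR-127-3p lies nearest to the 2-fold line.

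The MEG3-RTL1 group was represented by 4 members and was led by miR-432-5p. As a group it went from 155 counts in control to 16 in shWDR4, a 5.25-fold lower share (3.13 to 9.41). The hairpin of miR-432 lies opposite an exon of RTL1, the paternally expressed retrotransposon-derived gene, with the mature 5p arm at 100884496 to 100884518. This member had 132 counts in control and 7 in shWDR4, or 129 and 12.7 CPM, and was 10.2-fold lower (4.82 to 25.9). In control it held 29.3% of the cluster counts (25.1 to 33.7), the largest part of any member, and in shWDR4 10.0% (4.12 to 19.5).

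The other members of this group did not show such a difference. On the same RTL1 exon lies miR-127-3p, at 100883035 to 100883056, which in mouse directs cleavage of the Rtl1 messenger RNA. It had 23 counts in control and 6 in shWDR4, or 22.5 and 10.9 CPM. The ratio was 0.481 with an interval from 0.160 to 1.22, which includes no difference. The remaining 2, miR-665 and miR-493-5p, which lie nearer to MEG3, had 0 counts in control and 2 and 1 in shWDR4. Without miR-432-5p the group had 23 and 9 counts, and its ratio of 0.722 (0.294 to 1.62) included no difference, so the value of the group rests on that member.

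The long group held 20 members, and its sum was lower in shWDR4 whichever 1 of them was left out. It went from 290 CPM in control to 97.7 CPM in shWDR4, where it had 54 counts, a 2.97-fold lower share (2.22 to 4.05). With each member left out in turn its ratio ran from 0.299 to 0.365, and without miR-382-5p, its most counted member, it was 0.364 (0.256 to 0.507). Against totals without the 3 abundant shWDR4 entries its ratio was 0.533 in place of 0.337, above the level of a 2-fold difference. Of the 20, 6 reached 10 counts, and leaving out 1 member at a time does not tell how many carry the sum. The 16 cluster members under 10 counts, most of them in this group, had a summed ratio of 1.11 (0.678 to 1.80). The whole cluster without miR-432-5p stood at 319 and 63 counts, 2.74-fold lower (2.09 to 3.66).

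At the head of the long group, in an intron of MEG8, lie miR-379 and miR-411, whose 5p arms differ in the seed by G2A. The mature miR-379-5p (101022071 to 101022091) had 23 counts in control and 0 in shWDR4, which is at least 4.15-fold lower when 3 counts stand for the 0. The exact interval, which also covers the counting error of control, begins at 3.12-fold lower. Its neighbour miR-411-5p (101023340 to 101023360) had 51 and 9 counts, or 49.99 and 16.3 CPM, and was 3.07-fold lower (1.497 to 7.10). Together they had 74 and 9 counts, 4.46-fold lower (2.22 to 10.1), so all their reads in shWDR4 were of miR-411-5p.

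The miR-376 hairpins lie close together downstream of miR-411, outside the genes annotated by GENCODE release 29. Here miR-376c-3p (101039732 to 101039752) had 48 counts in control and 6 in shWDR4, or 47.0 and 10.9 CPM, and was 4.34-fold lower (1.85 to 12.4). For miR-376b-3p (101040497 to 101040518) the counts were 28 and 1, a 15.2-fold lower value whose interval runs from 2.51 to 620.5. The third, miR-376a-3p, is made from 2 hairpins and had 9 and 0 counts. All of them were lower in shWDR4 in counts. As a sum, the miR-376 entries went from 85 to 7 counts, 6.58-fold lower (3.06 to 16.9). This sum is free of the division of reads only if each read was counted at 1 entry. Elsewhere miR-517a-3p and miR-517b-3p had equal counts, 25 and 6 each, as had miR-199a-3p and miR-199b-3p, 18 and 9 each. The opposite-strand entries miR-423-5p and miR-3184-3p also had equal counts, 52349 and 16692 each. Counting a shared read at each entry gives such values, and the column totals then hold that read more than 1 time. Whether this took place among the miR-376 entries is not known.

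Toward the far end, miR-382-5p (101054316 to 101054337, outside annotated genes) was the most counted member of the long group. It had 78 counts in control and 11 in shWDR4, or 76.4 and 19.9 CPM, and was 3.84-fold lower (2.03 to 8.01). In the shWDR4 column it was the leading member of the cluster, with 15.7% of its counts (8.11 to 26.4), near its 17.3% in control (13.9 to 21.1). In an intron of MEG9, miR-369-5p (101065606 to 101065627) had 20 and 1 counts, 10.8-fold lower (1.73 to 449). Such wide intervals allow no ranking of miR-369-5p and miR-376b-3p against the others.

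**Figure D3:**
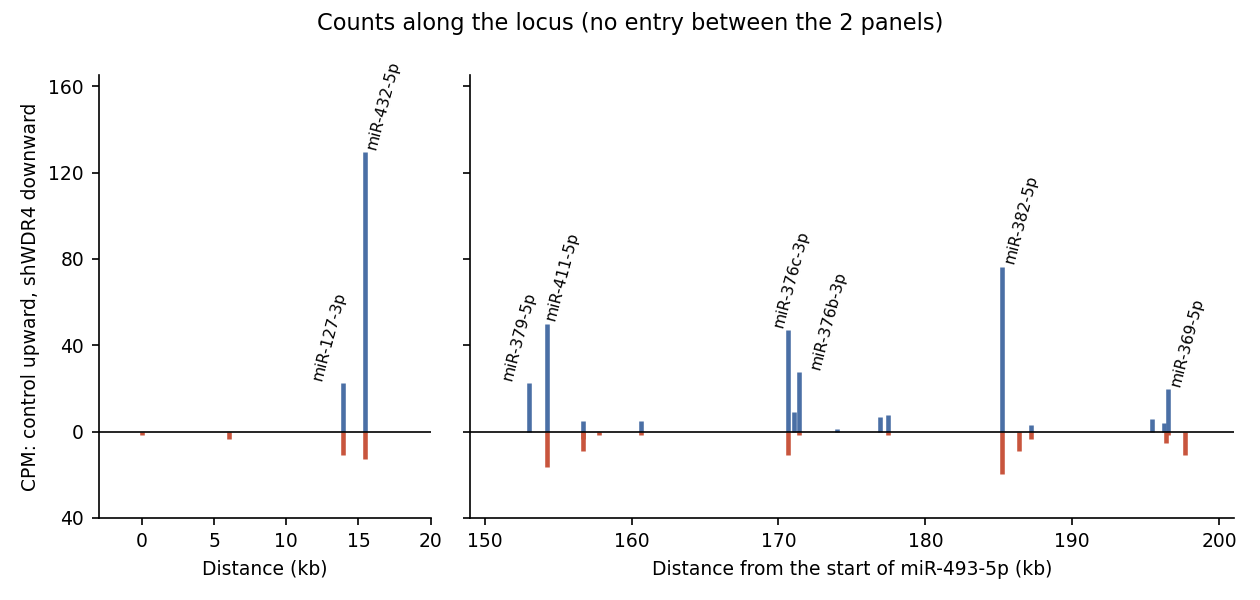
CPM of each member by its distance along the locus from the start of miR-493-5p, in kb, with control drawn upward in blue and shWDR4 downward in red. Members with at least 10 counts are named, and miR-376a-3p and miR-329-3p, each made from 2 hairpins, are drawn at the first. Control counts stand in a few tall bars in both groups, whereas shWDR4 bars are short and reach at most 19.9 CPM.

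Of the members under 10 counts, 5 were in control alone and 4 in both columns. Those in control alone were miR-376a-3p with 9 counts, miR-381-3p with 7, miR-541-5p with 6, miR-409-3p with 4 and miR-1185-1-3p with 1. In both columns, with the control count first, were miR-487b-3p with 8 and 1, miR-494-3p with 5 and 1, miR-323a-3p with 5 and 2 and miR-323b-3p with 3 and 2. All of them except miR-323b-3p had the lower CPM in shWDR4, and no ratio is given at these counts. Only for miR-376a-3p did the exact interval exclude no difference, with an upper limit of 0.935. Outside the cluster, miR-516b-5p and miR-517c-3p, also with 9 and 0 counts, had the same limit.

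The 7 members in shWDR4 alone held 23 counts, 32.9% of the cluster in that column (22.1 to 45.1). These were miR-656-5p with 6 counts, miR-323a-5p and miR-485-3p with 5 each, miR-412-3p with 3, miR-665 with 2 and miR-329-3p and miR-493-5p with 1 each. The exact interval excluded no difference for miR-656-5p, with a lower limit of 2.17, and for miR-323a-5p and miR-485-3p, with 1.69 each. These members were grouped by their 0 in control, so their share and limits are a description and no support for a gain. Of all 1247 entries, 341 were in shWDR4 alone. Outside the cluster, miR-520f-5p with 0 and 6 counts had the same lower limit of 2.17. Both arms of the miR-323a hairpin were seen in shWDR4, whereas the 5p arm was at 0 in control beside 5 counts of the 3p arm. The closely related miR-323a-3p and miR-323b-3p had 8 counts in control and 4 in shWDR4 together, a ratio of 0.923 (0.203 to 3.44).

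By arm, the 9 members named 5p went from 310 to 40 counts, 4.20-fold lower (3.01 to 5.99). The 14 members named 3p went from 141 to 28 counts, 2.73-fold lower (1.81 to 4.25). Of the 5p counts, 132 in control and 7 in shWDR4 were of miR-432-5p alone, and the arms were not compared without it. These intervals overlap, and the difference between arms was not tested.

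The authors' deposited table marked 7 members as lower in shWDR4 and none as higher, where 10.8% of its 1247 entries were marked lower and 15.4% higher. Its mark follows a Storey q-value under 0.001 with a 2-fold difference. Those marked in the authors' deposited table were the 8 members with at least 10 counts other than miR-127-3p, which had q = 0.0167. The marked member nearest to the threshold in the authors' deposited table was miR-369-5p with q = 0.000118. Just outside it in the authors' deposited table was miR-656-5p, with q = 0.00117 and a higher value in shWDR4. The authors' deposited table gave no fold for 6 members with at most 4 counts in either column. These q-values belong to 2 pooled columns and hold no spread between libraries.

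**Figure D4:**
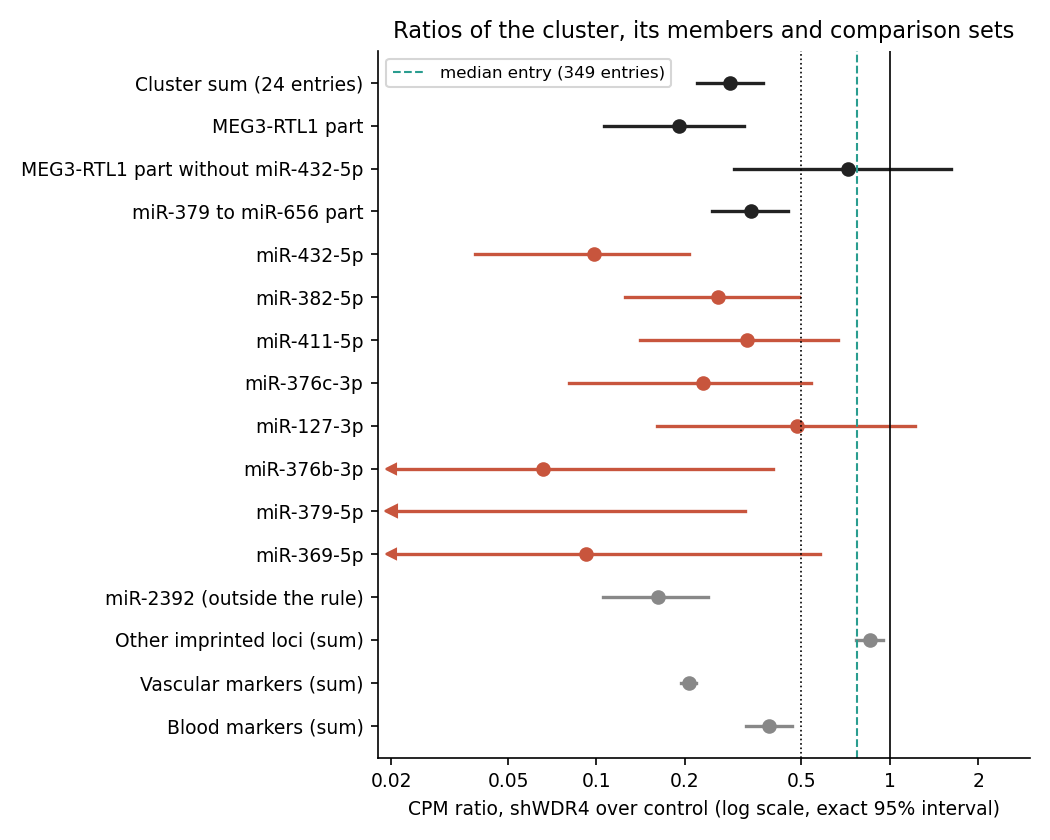
Ratio of CPM, shWDR4 over control, on a log axis, with exact 95% intervals for the cluster and its parts (black), the 8 members with at least 10 counts (red) and comparison sets (grey). Arrows mark intervals that run below the axis, and miR-379-5p is at 0 in shWDR4. Solid, dotted and dashed lines mark equality, a 2-fold lower value and the median of 349 entries. The cluster sum at 0.286 lies left of the dotted line, and miR-127-3p and the MEG3-RTL1 group without miR-432-5p reach across the solid one.

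In sequence the members were less rich in G and C than the table. Their median GC content was 48.8%, from 31.8% to 72.7%, against 57.1% for the 1115 entries with a RefSeq sequence. The members in shWDR4 alone had a median of 54.5% and those in control alone 46.5%. Over the table the order was the same, with 58.3% for 306 entries in shWDR4 alone and 52.4% for 172 in control alone. Of the 4-base motifs GGAG and CCCU, both reported in miRNAs of exosomes, GGAG was in 3 of the 24 members (12.5%) and in 22.1% of the 1115 entries, and CCCU in 2 members (8.33%) and 15.6% of entries. Only the mature strand was searched. Of the 8 members with at least 10 counts only miR-432-5p held GGAG, within its seed, and none held CCCU.

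Other imprinted loci were examined as the comparison most like the cluster. A list of miR-335 (MEST), miR-483 (IGF2), miR-675 (H19), miR-296 and miR-298 (GNAS) had 7 entries that summed to 1092 CPM in control and 935 CPM in shWDR4. Its ratio was 0.856 (0.770 to 0.951), and its interval lies above that of the chromosome 14 cluster, 0.219 to 0.369. Most of the list's counts in both columns were of 1 entry, miR-296-3p, with 626 and 328 counts (0.967, 0.843 to 1.11). Members of that list went both ways, with miR-335-5p at 404 and 112 counts (0.512, 0.411 to 0.632) and miR-483-3p at 12 and 23 (3.54, 1.69 to 7.80). Higher too was miR-296-5p at 38 and 38 (1.85, 1.15 to 2.97). The intervals of miR-298 (0.481), miR-483-5p (2.64) and miR-675-5p, with 4 and 0 counts, included no difference. With totals that leave out miR-3960 the list's ratio was 1.07, so it has no firm direction. The placental cluster on chromosome 19, also imprinted, had 23 entries with 130 and 38 counts, a ratio of 0.539 (0.365 to 0.780). Several of these share a mature sequence, and with 1 entry per sequence its counts were 70 and 32 and the ratio of 0.844 (0.537 to 1.30) included no difference.

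Sums of entries typical of other cell types were also lower in shWDR4 beside the chromosome 14 cluster, and all 14 listed markers had an entry. The 4 vascular markers went from 11869 to 1326 counts, 4.85-fold lower (4.58 to 5.14), and all 4 were detected in both columns. Most of these counts were of miR-126-3p, with 9954 and 1153. For miR-145-5p, with 7 and 2 counts, the interval of 0.0534 to 2.77 included no difference. The 6 blood markers went from 705 to 148 counts, 2.58-fold lower (2.16 to 3.10), carried by miR-486-5p with 509 and 100 counts and miR-142-3p with 100 and 3. The intervals of miR-142-5p, miR-223-3p and miR-150-5p included no difference, the last with a ratio of 1.38, and the red cell miR-451a had 0 and 3 counts. Of the 4 liver and muscle markers the sum went from 2148 to 691 CPM, almost all of it the hepatocyte miR-122-5p. The muscle entries showed no such difference. For miR-1-3p, with 6 and 3 counts, the ratio was 0.923 (0.149 to 4.32). The intervals of miR-206, with 3 and 0 counts, and miR-133a-3p, with 1 and 0, also included no difference. The part of these markers in the cluster's difference was not tested.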

How the data were processed

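Per the labels, small RNA from exosomes of H1299, in 3 libraries per group, was ligated to adaptors at both ends, amplified and size-selected. The submitters' processing notes name FastQC, Trim Galore, Bowtie, SAMtools and edgeR, with no role or version. The genome build was not given in the sources used here, nor was the handling of molecular identifiers or of reads with several matches. The deposited counts are whole-number counts per mature miRNA, and per the file headers each of the 2 columns joins the 3 libraries of its group. The deposited log2 fold, recomputed from the counts here, is control over shWDR4 scaled to the column totals with a 0 entered as 0.5, per the file headers and the values. The deposited q-value follows Storey, per the file headers. The significance mark is the authors'.

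Counts were divided by the column totals (CPM). Exact Clopper-Pearson intervals at 95% came from SciPy 1.17.1. The interval code was tested on simulated independent counts, modelled on entries with at least 50 counts. Smaller counts and copies made by amplification were not simulated. Scale factors for alternatives came from edgeR 4.0.16. Sequences and positions were matched by miRNA name to RefSeq (GRCh38.p14) and GENCODE release 29. No test between groups was run, since each group is a single joined column. Members whose 2 counts added to at least 10 were given a ratio. The others were given counts, and an interval limit where the exact interval excluded no difference. Differences were called by size, at 2-fold. Alternatives were other scalings, count minimums and sums without the leading member. The members, lists and alternatives were chosen with earlier results of these data known.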

Additional observations from a re-analysis of the deposited data

How the results depend on the processing

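No paired analysis was possible because each count column joins the 3 libraries of a group, and for the same reason no library could be left out. The ratio of the cluster sum stayed between 0.220 (upper-quartile scaling) and 0.364 (without miR-432-5p) in 6 of the 7 alternatives, and 1 moved it outside its interval, the totals without miR-3960, miR-6126 and miR-7704, to 0.454. The same totals moved the long group from miR-379 to miR-656 to 0.533. Without miR-432-5p, an alternative added after the data were seen, the MEG3-RTL1 group moved to 0.722. These scalings moved the median log2 ratio of all entries with at least 50 counts by -0.38 (upper quartile) to 0.66 (without the 3 abundant entries), with 151 entries lower and 76 higher in the former and 49 and 117 in the latter, against 110 and 91. Each of the 8 named members was lower under all 5 scalings, and at least 2-fold lower were 8 with upper-quartile scaling, 6 without the 3 abundant entries and 7 with the others. The count of members 2-fold lower was 4 with a minimum of 50 counts, 8 with a minimum of 20 or 10, and 10 of 24 with none, where 4 were 2-fold higher and the median log2 ratio moved to -0.70. These last values rest in part on the 3 counts put in place of a 0, which turned the direction of 4 members, miR-1185-1-3p, miR-409-3p, miR-329-3p and miR-493-5p. Detection in shWDR4 was 9 members at 3 counts and 8 at 5, against 18 at 1 count. The ratio of the other imprinted loci was 0.956 with trimmed mean of M values, 0.657 with upper-quartile scaling, 1.07 without miR-3960 and 1.36 without the 3 abundant entries. The cause of these moves was not tested beyond the change of totals, members or minimum itself. Depth limits the 16 members under 10 counts, and for 12 of them the exact interval included no difference. The share over all entries under 10 counts is not given here, so this count does not set the members apart from the table.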

Other observations

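The entry miR-2392, whose mature sequence lies in an intron of MEG3 at 100814551 to 100814570 of chromosome 14 (GRCh38), 54.5 kb before the first member, was not among the names of the cluster and had more counts than any member. It had 307 counts in control and 27 in shWDR4, or 301 and 48.8 CPM, and was 6.16-fold lower (exact 95% interval 4.15 to 9.50). With it, the cluster sum was 743 and 175 CPM, 4.23-fold lower (3.42 to 5.29).

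Runs of neighbouring hairpins elsewhere in the genome can be set beside the cluster. Hairpins on 1 strand with gaps of at most 10000 bases were joined, and entries with 1 position were summed where a run had at least 3 of them and 50 counts. Of 14 such runs 10 had the lower share in shWDR4. The lowest ratio was that of the run on chromosome 22 with let-7b-5p, from 11089 to 582 counts and 10.3-fold lower. The MEG3-RTL1 group followed at 5.25-fold and the long group, here with 18 entries, at 2.93-fold. The share was higher in shWDR4 for 4 runs. These were led by miR-6803-5p on chromosome 19 at a ratio of 2.95 (2.06 to 4.25), miR-92a-1-5p on chromosome 13 at 1.62 (1.57 to 1.68), miR-503-5p on chromosome X at 1.61 (1.49 to 1.74) and miR-100-5p on chromosome 11 at 1.33 (1.30 to 1.36). The runs were compared after the values were seen, with no test.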
